A study of Ipomoea batatas with 9 samples.

Results

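The enzymes that make and break down the plant hormone abscisic acid were followed in storage roots of the sweetpotato cultivar Xushu 18: 9-cis-epoxycarotenoid dioxygenase (NCED), which makes the hormone's precursor, and abscisic acid 8'-hydroxylase, which starts its breakdown. Contigs of the assembled transcriptome were taken where the deposited product description named either enzyme, without use of their levels. This gave 21 of 110110 contigs, of which 15 were NCED contigs and 6 were 8'-hydroxylase contigs. RNA was sequenced from roots stored at 4 °C, roots stored at 14 °C, both at a relative humidity of 85%, and roots that were not stored. Each of the 3 groups had 3 libraries, and each library came from a pool of 7 roots, so errors are SDs over 3 pools (n = 3) unless stated otherwise. Neither the labels nor the table give the weeks in store of the sequenced roots, so in any comparison with roots not stored, temperature and time in store cannot be told apart.

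NCED works in plastids, where it cleaves 9-cis-epoxycarotenoids to xanthoxin, and this cleavage is widely held to be the step that limits the rate of abscisic acid synthesis. Xanthoxin is then converted in the cytosol by a short-chain dehydrogenase and an aldehyde oxidase to abscisic acid. The 8'-hydroxylases are cytochrome P450 enzymes of the CYP707A family, whose product turns into phaseic acid and loses most hormone activity. In plant tissues abscisic acid rises under water deficit and other stresses, maintains dormancy of seeds and buds, and restrains sprouting. Its receptors (PYR/PYL) bind and block clade A protein phosphatases 2C, which frees SnRK2 kinases to activate bZIP factors of the ABF/ABI5 type.

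Total estimated counts per library were between 67643612 and 95421913. Of all contigs, 94802 had enough counts to be tested. Genes typical of the storage root, a list of 68 contigs for sporamin (the main storage protein), BMY1, AGPS1 and WAXY, summed to 440 ± 172 CPM (counts scaled to one common library size) at 4 °C, 67710 ± 4662 CPM at 14 °C and 117400 ± 21070 CPM in roots not stored, and 10 of these contigs had no count at 4 °C. Of the 67 tested, 60 were lower and 0 higher at 4 °C against 14 °C. Among all tested contigs 24% were lower and 23.8% higher. At 4 °C against roots not stored 58 of the 67 were lower and 6 higher, where 26.6% of all were lower and 26% higher. At 14 °C against roots not stored 36 were higher and 2 lower, although their sum was lower at 14 °C. In that comparison 15.1% of all were higher and 15.7% lower. Core histones, taken as markers of dividing cells, summed to 2898 ± 192 CPM at 4 °C, 966 ± 165 CPM at 14 °C and 1386 ± 310.2 CPM in roots not stored. Light-harvesting and photosystem contigs, markers of green tissue, summed to 192 ± 15.8, 589 ± 11.5 and 2074 ± 388 CPM in the same order of groups. Because RNA came from roots and not from separated cells, fewer cells of a type and less RNA per cell cannot be told apart in any result below. The part of these marker shifts in the results was not tested.

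The NCED contigs carried the symbol NCED1 in 5 cases, NCED3 in 8, NCED5 in 1 and CCD4 in 1, and all 15 shared one KEGG ortholog entry. CCD4 is the symbol of a different carotenoid cleavage dioxygenase, which makes apocarotenoids other than xanthoxin, so for that contig the symbol and the description name different enzymes. The 8'-hydroxylase contigs carried CYP707A1, CYP707A4 and CYP707A6, with 2 contigs each, and shared another ortholog entry. Lengths ran from 281 to 2231 bases for NCED and from 260 to 1649 bases for the 8'-hydroxylase. Sweetpotato is polyploid and many contigs were short, so several can be copies or pieces of one gene, reads from copies with nearly the same sequence can be shared out among them, and the contigs do not count as independent genes.

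Per transcript length, both enzymes were at their lowest in roots stored at 4 °C. The 15 NCED contigs summed to 4.11, 5.70 and 3.70 TPM (as deposited, scaled for contig length) at 4 °C, to 156, 142 and 125 TPM at 14 °C, and to 121, 149.7 and 168 TPM in roots not stored. All 3 libraries at 4 °C were far below the other 6, and the libraries at 14 °C overlapped with those of roots not stored. The 6 hydroxylase contigs summed to 2.21, 2.20 and 2.39 TPM at 4 °C, to 16.5, 18.4 and 14.7 TPM at 14 °C, and to 28.3, 60.9 and 37.8 TPM in roots not stored. Here none of the 3 groups overlapped, and the second library of roots not stored was the highest. On the CPM scale, which does not divide by length and adjusts for composition, NCED summed to 8.28 ± 3.09 at 4 °C, 162 ± 10.8 at 14 °C, with 274 ± 35.9 in roots not stored, and here the roots at 14 °C did not overlap with those not stored. The place of the NCED sum at 14 °C relative to roots not stored therefore differed between the scales.

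**Figure D1:**
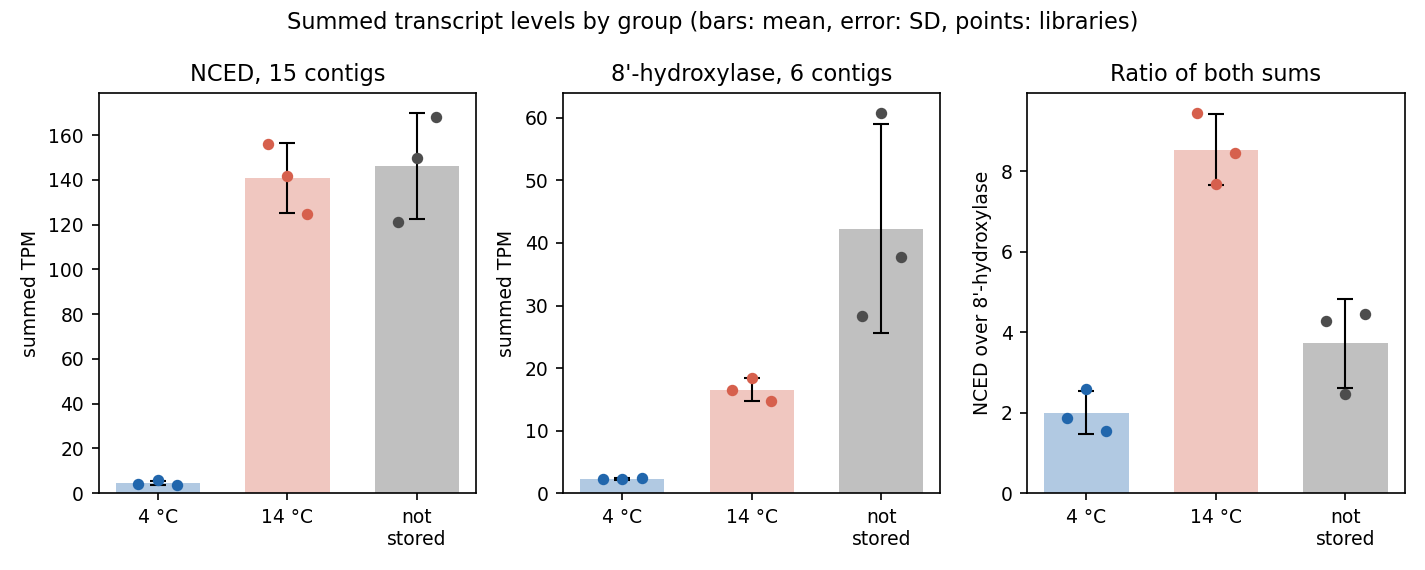
Summed TPM of the 15 NCED contigs (left), of the 6 8'-hydroxylase contigs (middle) and the ratio of both sums (right) for roots stored at 4 °C, stored at 14 °C and not stored. Bars are means, error lines SDs and points the 3 libraries of a group. The NCED sums at 4 °C lie between 3.70 and 5.70 TPM, below all other libraries, and the ratio is highest at 14 °C.

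At 4 °C against 14 °C, 14 of the 15 NCED contigs were lower and 1 was higher at a false discovery rate of 0.05. Among all tested contigs 47.8% were called, 24% lower and 23.8% higher. The median log2 fold change of the 15 was −6.59, or −5.34 with contigs without counts at 4 °C set to the bound that a floor of 3 counts per library gives, beside −0.08 over all tested contigs. In this comparison 2.53% of all tested contigs were called with a log2 fold change of −4 or less. The libraries of the groups did not overlap for any of the 15, 14 being wholly lower and 1 wholly higher at 4 °C, against 30.9% wholly lower and 29.5% wholly higher among all tested contigs.

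The NCED contig with the highest level was comp56932_c1 (NCED1, 2231 bases). It had 5.07, 3.26 and 4.32 CPM at 4 °C, against 104, 114 and 94.3 CPM at 14 °C. Its log2 fold change was −4.63 ± 0.20 (SE; adjusted p = 6.72e-09), and it held 46.0 ± 18.4% of the summed NCED TPM at 4 °C and 37.2 ± 3.63% at 14 °C. In the libraries at 4 °C it stood at 4.87, 3.13 and 4.15% of its mean at 14 °C, whereas sporamin stood at 0.779, 0.715 and 0.0792%. In the library with the least sporamin, comp56932_c1 was neither highest nor lowest among the libraries at 4 °C, and a link between the levels was not tested.

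Next came comp25820_c1 (NCED1), with 0.0507, 0.0385 and 0.127 CPM at 4 °C, against 13.0, 10.7 and 13.3 CPM at 14 °C (log2 fold change −7.35 ± 0.33 (SE), adjusted p = 8.90e-09). Without the third library at 4 °C this value was −8.00. The short contig comp23198_c1 (NCED3; in Arabidopsis NCED3 is the dioxygenase best known for its rise under drought) had 0.0395, 0 and 0.0560 CPM at 4 °C, against 3.31, 3.11 and 2.87 CPM at 14 °C. That is 7 counts in all at 4 °C, a ratio of 102-fold lower with a 95% interval from 49.4 to 255 that covers counting error only (fitted log2 fold change −6.59 ± 0.47 (SE), adjusted p = 3.47e-07; −5.97 without the second library at 4 °C). The contig comp53246_c2 (NCED3) had 0.322, 0.243 and 0.461 CPM at 4 °C, against 8.55, 5.85 and 5.97 CPM at 14 °C (log2 fold change −4.30 ± 0.28 (SE), adjusted p = 1.52e-07). In each of these contigs the highest library at 4 °C was more than 10-fold below the lowest at 14 °C.

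Another NCED1 pair had like values, comp23975_c2 with 0.111, 0.0996 and 0.109 CPM at 4 °C, against 13.4, 10.7 and 11.8 CPM at 14 °C, and comp779_c3 with 0.0875, 0 and 0.140 CPM at 4 °C, against 12.9, 10.2 and 10.9 CPM at 14 °C. Among NCED3 contigs, comp53247_c3 had 0.216, 0.159 and 0.0982 CPM at 4 °C, against 3.74, 3.28 and 2.78 CPM at 14 °C. The contig comp3210_c1 had 0.0434, 0.0156 and 0.0702 CPM at 4 °C, against 2.75, 1.57 and 1.15 CPM at 14 °C. All 4 were called lower, and each held only a few reads at 4 °C. Leaving out 1 library at 4 °C moved the fold of comp779_c3 and comp3210_c1 by over 1.5 times, with log2 fold changes of −8.08 and −6.01 without the third library and, for comp779_c3, −6.59 without the second, but both stayed called.

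At the lowest end, 3 NCED contigs had no count in any library at 4 °C. With a floor of 3 counts per library (0.0318 to 0.0426 CPM), comp10290_c1 (NCED3) was at least 21.1-fold lower at 4 °C, since it had 1.01, 0.686 and 0.799 CPM at 14 °C. By the same floor comp63287_c2 (NCED1) was at least 16.7-fold lower and comp64207_c1 (NCED3) at least 3.30-fold lower. With 1 count at 4 °C, comp12287_c1 (CCD4) had 0, 0.0125 and 0 CPM, against 2.01, 1.99 and 1.64 CPM at 14 °C, a ratio of 435 with an interval from 77.7 to 17220. The contig comp53245_c1 (NCED3) also had 1 count, with a ratio of 212 and an interval from 37.7 to 8417. For comp37432_c1 (NCED3), with 0.0234, 0.0611 and 0 CPM at 4 °C, against 2.70, 1.99 and 2.66 CPM at 14 °C, 7 counts gave a ratio of 80.0 with an interval from 38.6 to 199.7. Its fitted log2 fold change of −6.26 was −7.32 without the second library at 4 °C and −5.67 without the third. The single count of comp12287_c1 and of comp53245_c1 lay in that second library, without which both had none at 4 °C. All 6 of these contigs were called lower at 4 °C.

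**Figure D2:**
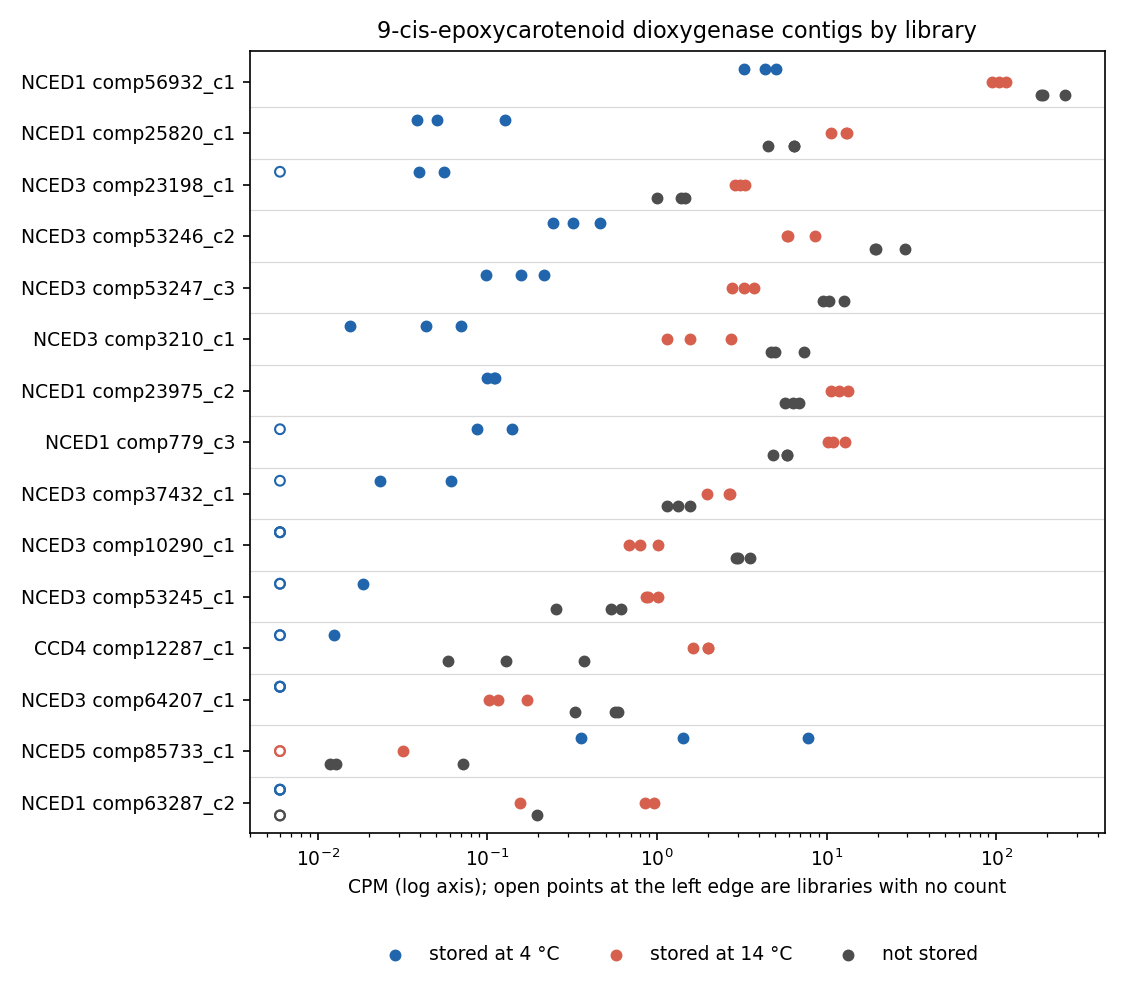
CPM of each NCED contig in each library, on a log axis, for roots stored at 4 °C (blue), stored at 14 °C (red) and not stored (grey); open points at the left edge are libraries without a count. Contigs run down the page by mean TPM. For 14 contigs the blue points lie left of all red ones, and for NCED5 comp85733_c1 they lie right of them.

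The 1 NCED contig that was higher at 4 °C was comp85733_c1 (NCED5, 2119 bases; in Arabidopsis NCED5 is among the dioxygenases that supply abscisic acid in seeds). It had 1.43, 7.81 and 0.355 CPM at 4 °C, against 0.0318, 0 and 0 CPM at 14 °C and 0.0118, 0.0720 and 0.0129 CPM in roots not stored. All 3 libraries at 4 °C were above all others, but they spread widely, with the second the highest and the third the lowest. From 3 counts at 14 °C the ratio was 281 with an interval from 95.9 to 1368 (fitted log2 fold change 7.93 ± 1.49 (SE), adjusted p = 0.00189). Without the second library at 4 °C the ratio was 73.9, with an interval from 24.7 to 363, and the fitted value 6.11, still called. Without the first library at 14 °C, the only one there with a count, the fitted value was 11. Against roots not stored, with 8 counts, the ratio was 101 with an interval from 51.1 to 235 (fitted 6.56 ± 1.32 (SE), adjusted p = 0.00243), and without the second library at 4 °C it was 26.6. Without the second library of roots not stored the fitted value was 7.82. That call was lost with limma-voom (adjusted p = 0.056). This contig took 28.0 ± 30.3% of the summed NCED TPM at 4 °C, between 4.87% and 62.3% by library. Without it the NCED sum at 4 °C was 5.08 ± 1.06 CPM.

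At 4 °C against roots not stored, 13 of the 15 NCED contigs were lower, 1 was higher (NCED5) and 1 was not called, with a median log2 fold change of −6.03, or −5.83 with bounds, beside −0.02 over all contigs. Among all tested contigs 52.5% were called, 26.6% lower and 26% higher, and 3.48% were called with a log2 fold change of −4 or less. The libraries at 4 °C lay wholly below those of roots not stored for 13 of the contigs and wholly above for 1, where 30% and 30.1% of all tested contigs did. This comparison shares its libraries at 4 °C with the one above. The leading contig comp56932_c1 (NCED1) had 185, 256 and 189.6 CPM in roots not stored, a log2 fold change at 4 °C of −5.64 ± 0.21 (SE; adjusted p = 2.02e-09). The value was −6.26 ± 0.32 for comp25820_c1 (adjusted p = 2.08e-08; −6.90 without the third library at 4 °C), −5.33 ± 0.48 for comp23198_c1 (adjusted p = 1.83e-06) and −6.03 ± 0.29 for comp53246_c2 (adjusted p = 1.16e-08). The contig that was not called was comp63287_c2 (NCED1), which had no count at 4 °C, against 0, 0.198 and 0 CPM in roots not stored.

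At 14 °C against roots not stored, a comparison that shares its libraries with the other 2, the NCED contigs split. Of the 15, 5 were higher, 6 were lower and 4 were not called, where 30.9% of all tested contigs were called, 15.1% higher and 15.7% lower. Of the 15, 7 lay wholly above and 6 wholly below the roots not stored, where 22.6% and 22% of all contigs did. The median log2 fold change was 0.86, beside 0.02 over all contigs. Scaling by library totals alone moved the median over all contigs to 0.27 and the called contigs from 14335 higher and 14915 lower to 21986 higher and 10372 lower, and called 7 NCED contigs higher and 6 lower. No NCED contig changed its direction under that scaling.

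The 6 lower contigs were the leading NCED1 contig and 5 of the 8 NCED3 contigs. For comp56932_c1 (NCED1) the log2 fold change at 14 °C was −1.01 ± 0.17 (SE; adjusted p = 0.000955), with 104, 114 and 94.3 CPM, against 185, 256 and 189.6 CPM in roots not stored. For comp53246_c2 (NCED3), with 19.6, 19.3 and 29.0 CPM in roots not stored, it was −1.74 ± 0.22 (SE; adjusted p = 0.000159). The other 4 NCED3 contigs were lower by similar sizes, with log2 fold changes of −1.73 (comp53247_c3), −1.63 (comp3210_c1), −1.93 (comp10290_c1) and −1.95 (comp64207_c1). In roots not stored comp53247_c3 had 10.3, 9.49 and 12.6 CPM, comp3210_c1 had 4.96, 4.72 and 7.34 CPM, and comp10290_c1 had 2.94, 3.0 and 3.53 CPM. The call of comp64207_c1, with under 1 CPM in every library, was lost without the first library at 14 °C.

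The 5 higher contigs were 3 of the NCED1 contigs, 1 NCED3 contig and the CCD4 contig. The contig comp25820_c1 (NCED1) had 6.43, 4.50 and 6.39 CPM in roots not stored, and its log2 fold change at 14 °C was 1.10 ± 0.22 (SE; adjusted p = 0.00274). The contig comp23975_c2 (NCED1) had 6.31, 6.93 and 5.66 CPM in roots not stored (log2 fold change 0.92 ± 0.15 (SE), adjusted p = 0.000749), and comp23198_c1 (NCED3) had 1.38, 1.00 and 1.47 CPM there (1.26 ± 0.31, adjusted p = 0.00984). The contig comp779_c3 (NCED1) had 4.87, 5.85 and 5.85 CPM in roots not stored (1.04 ± 0.31, adjusted p = 0.0254), a call lost with each library of either group left out except the third of roots not stored, with adjusted p between 0.054 and 0.098. The CCD4 contig comp12287_c1 had 0.0588, 0.372 and 0.129 CPM in roots not stored (3.32 ± 0.52, adjusted p = 0.000607), and 4.28 without their second library. In all 5 the libraries at 14 °C lay above those of roots not stored without overlap.

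Of the 4 contigs that were not called, comp37432_c1 (NCED3) had 1.33, 1.14 and 1.56 CPM in roots not stored and a log2 fold change of 0.86 at 14 °C (adjusted p = 0.0692; 0.025 without the third library at 4 °C). For comp53245_c1 (NCED3) the value was 0.96 (adjusted p = 0.0824). The contig comp63287_c2 (NCED1) had 0.958, 0.856 and 0.157 CPM at 14 °C, and its value of 3.32 (adjusted p = 0.0734) passed the threshold with the replicate number as a block, under limma-voom and without the second library of roots not stored, the only one there with counts (adjusted p = 0.0081). The fourth was NCED5, with counts near 0 in both groups.

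Within the NCED1 and the NCED3 symbols, contigs thus moved in both directions between 14 °C and roots not stored. Summed by symbol, the 5 NCED1 contigs had 93.9 ± 8.54 TPM at 14 °C and 93.8 ± 14.9 TPM in roots not stored, against 2.20 ± 0.575 TPM at 4 °C. The 8 NCED3 contigs had 43.9 ± 7.28 TPM at 14 °C and 52.3 ± 15.9 TPM in roots not stored, against 0.820 ± 0.204 TPM at 4 °C.

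**Figure D3:**
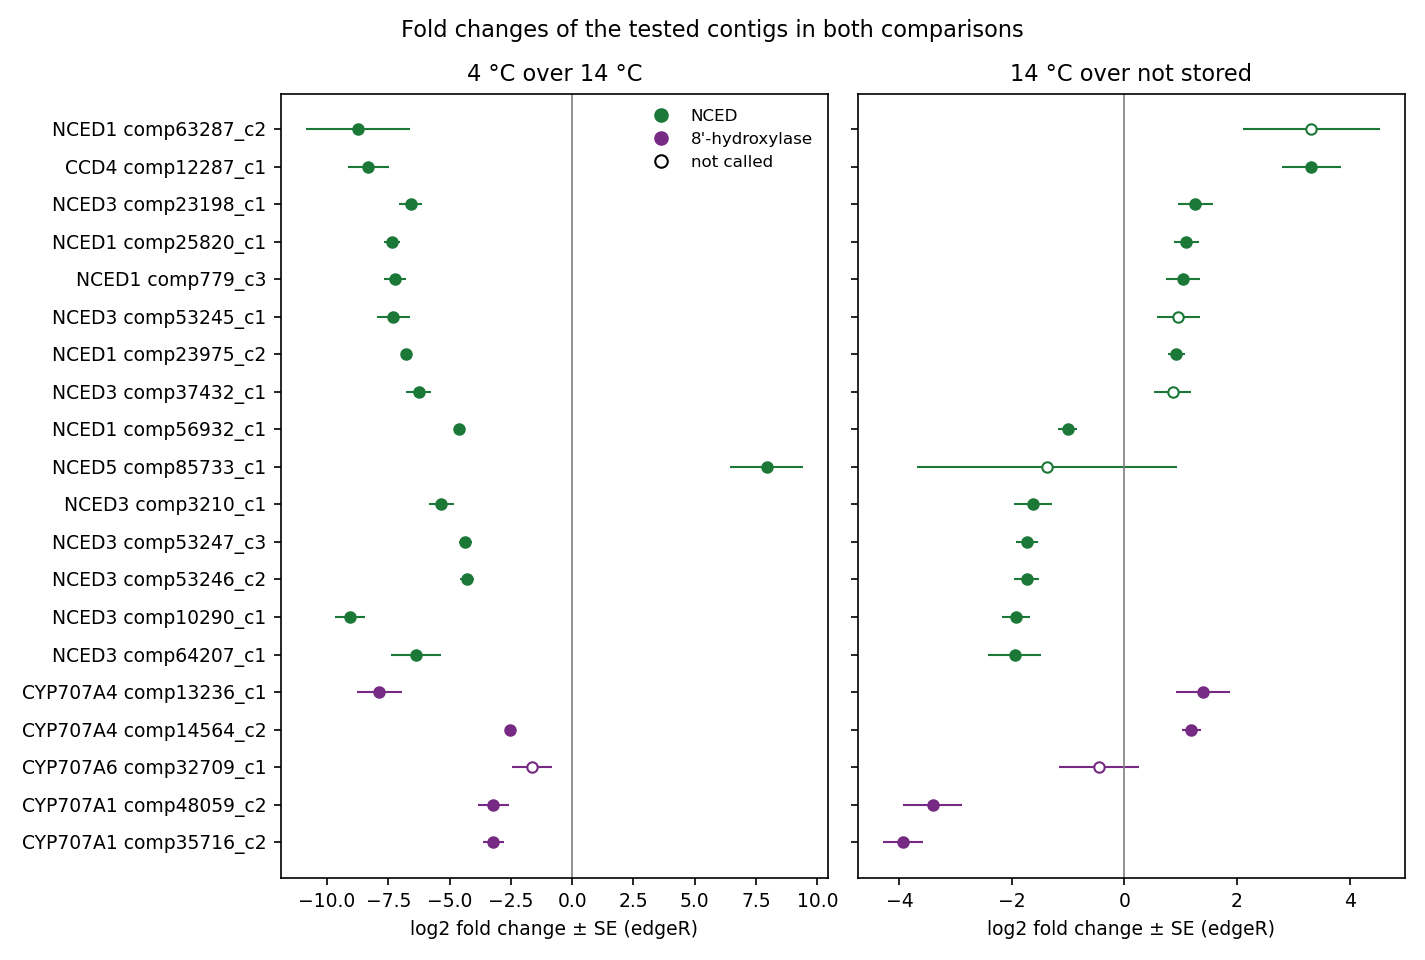
Log2 fold changes with their SE from the edgeR fit for the 15 NCED contigs (green) and the 5 tested 8'-hydroxylase contigs (purple), at 4 °C over 14 °C (left) and at 14 °C over not stored (right); open points were not called. Contigs are sorted within each enzyme by the right panel, and values left of −5 on the left panel include contigs without counts at 4 °C, whose fitted size is no bound. The right panel runs from above 3 (CCD4 comp12287_c1) to below −3 (CYP707A1 comp35716_c2).

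Of the 6 8'-hydroxylase contigs 5 could be tested, and 4 of them were lower at 4 °C against 14 °C, none was higher and 1 was not called, beside 24% lower and 23.8% higher among all tested contigs. Their log2 fold changes had a median of −3.21, or −3.18 with bounds. Of all 6 contigs, 5 lay wholly below the libraries at 14 °C (30.9% of all tested contigs did). Against roots not stored all 5 tested contigs were lower at 4 °C, with a median of −6.47, or −2.10 with bounds, and all 6 contigs lay wholly below the roots not stored. Among all tested contigs 26.6% were called lower and 30% lay wholly below in that comparison. At 14 °C against roots not stored 2 were higher, 2 were lower and 1 was not called, with a median of −0.45, beside 15.1% higher and 15.7% lower among all tested contigs.

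The 2 CYP707A1 contigs were highest in roots not stored. In Arabidopsis CYP707A1 is an 8'-hydroxylase of vegetative tissue, guard cells and mid-stage seeds. The contig comp35716_c2 had 0.166, 0.200 and 0.131 CPM at 4 °C, 2.06, 1.59 and 0.959 CPM at 14 °C, against 16.6, 36.7 and 18.1 CPM in roots not stored. The contig comp48059_c2 had 0.108, 0.247 and 0 CPM at 4 °C, 0.931, 1.54 and 0.952 CPM at 14 °C, against 8.81, 18.0 and 9.73 CPM in roots not stored. The 3 groups did not overlap in either contig, and in both the second library of roots not stored was well above the other two. For comp35716_c2 the log2 fold change was −3.21 ± 0.44 at 4 °C against 14 °C (SE; adjusted p = 0.000123), −7.15 ± 0.45 at 4 °C against roots not stored (adjusted p = 2.66e-07) and −3.94 ± 0.36 at 14 °C against roots not stored (adjusted p = 2.54e-05). For comp48059_c2 these values were −3.21, −6.63 and −3.41, all called. Without the second library at 4 °C the values at 4 °C were −4.33 and −7.80, and without the third they were −2.61 and −6.02.

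The CYP707A4 contigs had another order of groups. The contig comp14564_c2 had 2.71, 1.88 and 2.74 CPM at 4 °C, 12.7, 15.6 and 13.9 CPM at 14 °C, against 5.78, 6.42 and 6.26 CPM in roots not stored. It was highest at 14 °C without overlap, with log2 fold changes of −2.52 ± 0.18 at 4 °C against 14 °C (SE; adjusted p = 2.93e-07), −1.33 ± 0.17 at 4 °C against roots not stored (adjusted p = 4.11e-05) and 1.19 ± 0.17 at 14 °C against roots not stored (adjusted p = 0.000285). The much rarer comp13236_c1 had no count at 4 °C and was at least 9.06-fold lower there than at 14 °C and at least 3.44-fold lower than in roots not stored. At 14 °C it was 1.39 ± 0.48 higher on the log2 scale than in roots not stored (SE; adjusted p = 0.0499), a call lost under 13 of 17 other settings, among them every left-out library except the third at 4 °C, with adjusted p of 0.051 to 0.17 over those lost.

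The 2 CYP707A6 contigs were at the edge of detection. The contig comp32709_c1 had 11 counts at 4 °C, 37 at 14 °C, against 51 in roots not stored. It was lower at 4 °C than in roots not stored (log2 fold change −2.10, adjusted p = 0.0425), a call lost with the first or the third library at 4 °C or the second or the third of roots not stored left out, and −3.29 without the second library at 4 °C. It was not called at 4 °C against 14 °C (adjusted p = 0.113; 0.042 without that library) or at 14 °C against roots not stored. The contig comp55212_c1 had 6 counts at 4 °C, 20 at 14 °C, against 24 in roots not stored, too few for the test.

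The make-up of the hydroxylase transcripts therefore differed between the groups. The contig comp14564_c2 (CYP707A4) held 70.3 ± 14.6% of the summed hydroxylase TPM at 4 °C, 62.3 ± 4.16% at 14 °C, but 8.58 ± 2.75% in roots not stored. The contig comp35716_c2 (CYP707A1) held 9.63 ± 2.37% at 4 °C, 14.3 ± 4.84% at 14 °C, but 65.1 ± 3.99% in roots not stored. Neither share in roots not stored overlapped with those of stored roots.

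One more contig carried the symbol CYP707A1 but a description of another cytochrome P450 family, and so was not counted above. This contig, comp72316_c1, had 1.78, 1.73 and 0.917 CPM at 4 °C, 8.98, 8.79 and 10.1 CPM at 14 °C, against 103, 219.9 and 104 CPM in roots not stored. It had the same order of groups and the same high second library of roots not stored as the 2 counted CYP707A1 contigs, at a higher level in CPM. Its log2 fold change at 14 °C against roots not stored was −3.94 ± 0.34 (SE; adjusted p = 2.69e-05), and at 4 °C against 14 °C −2.66 ± 0.34 (adjusted p = 0.00011).

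**Figure D4:**
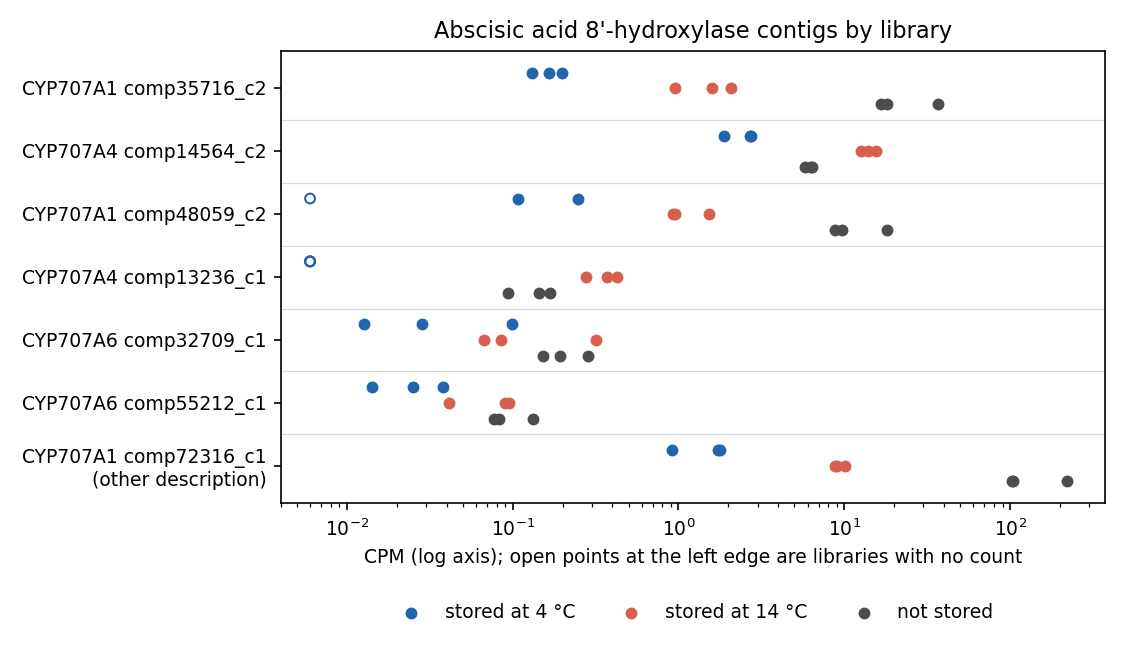
CPM of each 8'-hydroxylase contig in each library, on a log axis, for roots stored at 4 °C (blue), stored at 14 °C (red) and not stored (grey); open points at the left edge are libraries without a count, and the lowest row is the CYP707A1 contig with another description. CYP707A1 contigs are highest in roots not stored, and CYP707A4 comp14564_c2 is highest at 14 °C, between 12.7 and 15.6 CPM.

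Set side by side per length, the sum of NCED TPM over that of the hydroxylase was 1.86, 2.59 and 1.55 at 4 °C, 9.47, 7.70 and 8.46 at 14 °C, and 4.28, 2.46 and 4.45 in roots not stored. The ratio at 14 °C was above all other libraries. At 4 °C and in roots not stored the libraries overlapped on this scale, whereas on the CPM scale, at 3.06 ± 1.51 and 6.82 ± 1.5, they did not. Without NCED5 comp85733_c1, a choice made after the data were seen, the TPM ratio was 1.55, 0.977 and 1.47 at 4 °C, and then did not overlap with roots not stored. The overlap lay in the second library at 4 °C. These are ratios of transcripts and not of enzyme activity or hormone, which were not measured. The hydroxylase sum leaves out comp72316_c1, the contig with the symbol CYP707A1 and another description. That contig averaged 1.47 CPM at 4 °C, 9.30 CPM at 14 °C and 142 CPM in roots not stored. The 6 counted contigs summed to 2.80, 17.3 and 42.6 CPM in the same order. In roots not stored comp72316_c1 had 103, 219.9 and 104 CPM by library, where the 6 counted contigs summed to 31.55, 61.56 and 34.58 CPM. With it the CPM ratio falls most in roots not stored, whose libraries then overlap with those at 4 °C. The libraries at 14 °C still lie above both groups.

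Contigs with a level across the 9 libraries most like that of comp56932_c1 (NCED1) were sought among 9690 others with an informative description and at least 5 CPM in their highest group, by Pearson correlation of log2(CPM + 0.5). The 5 closest were comp19475_c1 (PCK, phosphoenolpyruvate carboxykinase of gluconeogenesis), comp28925_c2 (AGO4A, an argonaute), comp46417_c1 (ATHB-12, a homeobox-leucine zipper factor), comp86084_c3 (PP2CA, a clade A phosphatase 2C) and comp63094_c1 (AZG1, a purine permease), with r of 0.996 to 0.998. The libraries share their groups, and 476 of the 9690 had r above 0.95. The homeobox contig averaged 0.229 ± 0.151 CPM at 4 °C, 19.6 ± 1.58 CPM at 14 °C and 40.1 ± 4.80 CPM in roots not stored. For comp35716_c2 (CYP707A1) the closest were comp5933_c1 (FER), comp40054_c8 (RAP2-4, an ethylene response type factor), comp28312_c1 (GAE1, a UDP-glucuronate epimerase of pectin synthesis), comp36257_c1 (CESA3, a cellulose synthase) and comp43498_c1 (SCPL50, a carboxypeptidase), with r of 0.990 to 0.992, and 264 had r above 0.95. Of these GAE1 averaged 24.4 ± 2.40 CPM at 4 °C, 59.9 ± 6.98 CPM at 14 °C and 503 ± 162 CPM in roots not stored.

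Upstream of NCED, 4 of 5 tested contigs for zeaxanthin epoxidase and violaxanthin de-epoxidase, which interconvert the xanthophyll precursors, were lower at 4 °C against 14 °C and none was higher, beside 24% lower and 23.8% higher among all tested contigs. The most abundant, comp8461_c2 (symbol ABA2, described as zeaxanthin epoxidase), had 9.90 ± 1.83 CPM at 4 °C, against 36.3 ± 2.78 CPM at 14 °C (log2 fold change −1.88 ± 0.16 (SE), adjusted p = 1.2e-06). Of 14 other carotenoid cleavage dioxygenases, which cut carotenoids at other bonds or cut other carotenoids, 10 were lower at 4 °C and none was higher, with a median log2 fold change of −1.40. The leading one, comp6085_c2 (CCD), differed less than NCED, with 94.1 ± 7.01 CPM at 4 °C, against 138 ± 6.41 CPM at 14 °C (−0.55 ± 0.10 (SE), adjusted p = 0.00079). At 14 °C against roots not stored 2 of the 5 and 6 of the 14 were lower and 0 and 1 were higher, against 15.7% lower and 15.1% higher among all. Scaled by library totals alone, 2 of the 5 were higher and 2 lower, and 2 of the 14 were higher and 6 lower. Under that scaling 21986 of all 94802 tested contigs were higher and 10372 lower.

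Of 24 contigs for xanthoxin dehydrogenase, the next enzyme after NCED, 12 were higher and 7 lower at 4 °C against 14 °C, with a median log2 fold change of 0.70. Among all tested contigs 23.8% were higher and 24% lower. At 4 °C against roots not stored 7 of the 24 were higher and 9 lower, with a median of −0.74, where 26% of all were higher and 26.6% lower. In the first of these comparisons comp106384_c1 (ABA2) had 64.2 ± 6.43 CPM at 4 °C, against 14.5 ± 2.36 CPM at 14 °C (log2 fold change 2.15 ± 0.15 (SE), adjusted p = 3.1e-07). Of 11 abscisic-aldehyde oxidase contigs, the last step, 3 were higher and 4 lower at 4 °C against 14 °C, and only 1 was higher without the first library at 4 °C or the first or the third at 14 °C. The contig comp51100_c2 (AAO4) had 23.1 ± 2.97 CPM at 4 °C, against 20.5 ± 0.913 CPM at 14 °C, which was not called (adjusted p = 0.26). Of 5 contigs for the sulfurase of the molybdenum cofactor that the oxidase needs, 1 was higher and 0 lower. Of 9 contigs for abscisic acid transporters, 4 were lower and 0 higher, and comp21361_c3 (ABCG25, an exporter in Arabidopsis) had 1.04 ± 0.287 CPM at 4 °C, against 3.36 ± 0.956 CPM at 14 °C (−1.70 ± 0.32 (SE), adjusted p = 0.00091). At 4 °C against roots not stored all 5 sulfurase contigs were higher (2 to 5 over the settings), with a median log2 fold change of 0.55. There 3 oxidase contigs were higher and 5 lower, and 0 transporter contigs were higher and 4 lower. Among all tested contigs 26% were higher and 26.6% lower in that comparison.

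In signalling, abscisic acid binds receptors, which then block clade A phosphatases 2C. Of 24 receptor contigs 13 were higher and 0 lower at 4 °C against 14 °C, with a median log2 fold change of 0.94, and comp76418_c1 (PYL9) had 130.2 ± 15.2 CPM at 4 °C, against 37.2 ± 7.52 CPM at 14 °C (1.81 ± 0.17 (SE), adjusted p = 3.3e-06). Of 19 clade A phosphatase 2C contigs 18 were lower and 1 higher, with a median of −2.53, and comp48161_c1 (PP2CA) had 14.7, 16.1 and 14.2 CPM at 4 °C, against 141, 149.6 and 149 CPM at 14 °C (−3.29 ± 0.12 (SE), adjusted p = 2.8e-09). The SnRK2 kinases were divided, with 4 higher and 5 lower of 23 (3 and 9 when scaled by library totals alone), and comp24091_c1 (SAPK8) had 169.7 ± 10.6 CPM at 4 °C, against 141 ± 18.0 CPM at 14 °C, which was not called. Of 25 bZIP factors of the ABF/ABI5 type 14 were lower and 1 higher, and comp69125_c1 (ABF2) had 22.5, 20.6 and 19.9 CPM at 4 °C, against 58.1, 59.5 and 57.8 CPM at 14 °C (−1.48 ± 0.11 (SE), adjusted p = 3.7e-07). These shares stand beside the 23.8% higher and 24% lower among all tested contigs. Scaled by library totals alone, 19470 of all 94802 tested contigs were higher and 26115 lower in this comparison.

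At 14 °C against roots not stored 1 of the receptors was higher and 6 were lower, 9 of the phosphatases were higher and 2 lower, and 11 of the bZIP factors were higher and 4 lower. Among all tested contigs 15.1% were higher and 15.7% lower. These counts moved with the scaling. By library totals alone 4 receptors were higher and 5 lower. There 12 phosphatases were higher and 1 lower, and 14 bZIP factors were higher and 1 lower. Under that scaling 21986 of all 94802 tested contigs were higher and 10372 lower. With any library of 14 °C, or the first or the third of roots not stored, left out, 4 or 5 phosphatases were higher. The PP2CA contig comp48161_c1 had 195.8 ± 21.8 CPM in roots not stored, with a log2 fold change at 14 °C of −0.42 ± 0.11 (SE, adjusted p = 0.014), a call lost with library totals alone and without the first library at 14 °C (−0.54 to −0.17 over all settings). At 4 °C against roots not stored 9 of the 24 receptors were higher and 2 lower, and 17 of the 19 phosphatases were lower and 1 was higher. Of the 23 SnRK2 contigs 2 were higher and 10 lower there, and of the 25 bZIP factors 7 were higher and 10 lower, with a median of −0.15. Among all tested contigs 26% were higher and 26.6% lower in this comparison.

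**Figure D5:**
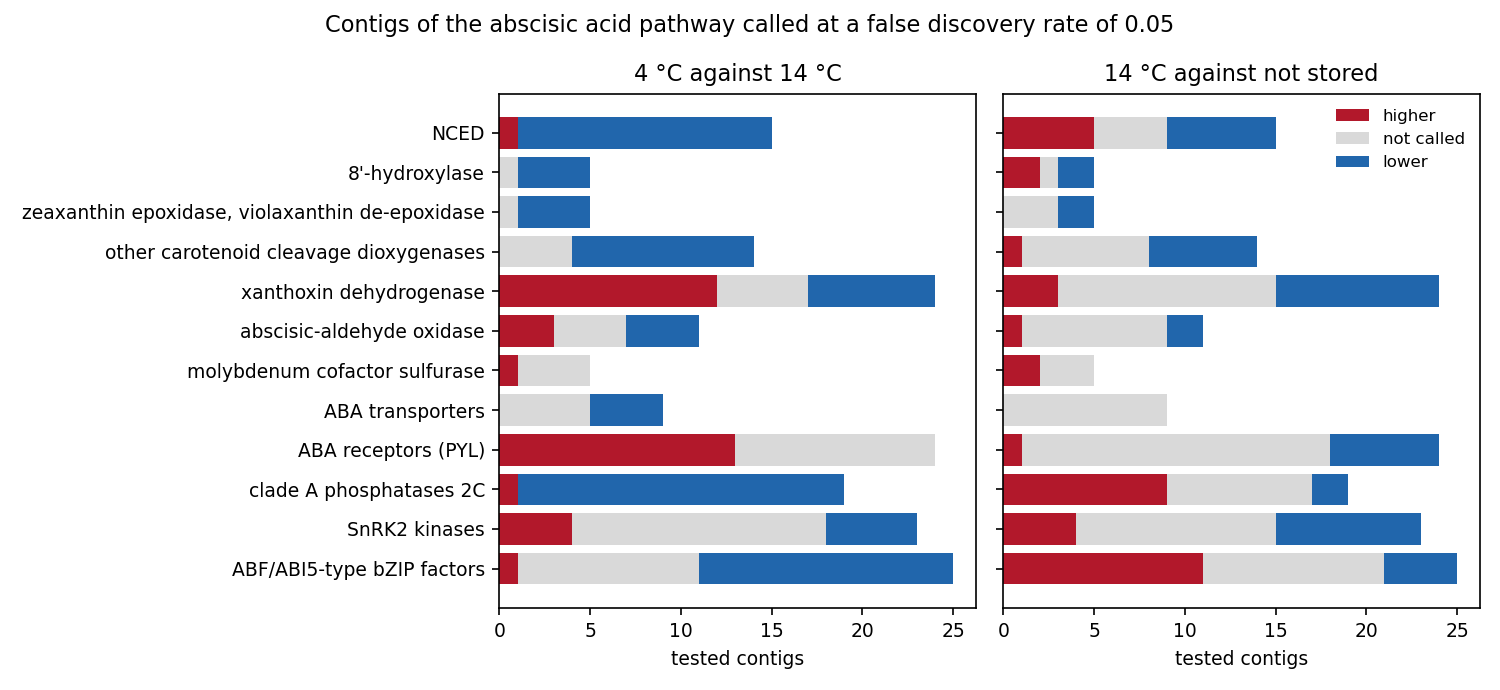
Number of tested contigs called higher (red), lower (blue) or not called (grey) at a false discovery rate of 0.05, for both enzymes and the other lists of the pathway, at 4 °C against 14 °C (left) and at 14 °C against not stored (right). On the left 14 of 15 NCED and 18 of 19 phosphatase 2C contigs are lower while 13 of 24 receptors are higher, and on the right NCED is divided into 5 higher and 6 lower.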

How the data were processed

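RNA-seq of 9 pooled root samples was analysed from one table. The authors deposited estimated counts, TPM (scaled by the authors per contig length to a constant sum), RPKM (checked but not used here) and contig lengths, per the file headers. Without giving roles, the submitters' processing notes list HISAT2 2.0.4, StringTie 1.3.4d, cutadapt 1.9, edgeR and DESeq2. The tool behind the counts and the strand are not given in the sources used here, and antisense reads cannot be told apart. The extraction text in the labels describes another tissue and was not used.

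Estimated counts (18.7% to 22.6% of all 110110 contigs whole per library within 1e-08, which includes 4.83% to 6.51% at 0) were rounded and tested in edgeR 4.0.16 under R 4.3.3 (TMM, filterByExpr, robust quasi-likelihood, 1 fit over the 9 libraries, Benjamini-Hochberg threshold 0.05 over all 94802 tested contigs), with no replicate block. CPM are counts over TMM-scaled library size. SE is the log2 fold change over the square root of F. Floors are 3 counts per library, and ratios from 1 to 9 counts have exact binomial 95% intervals; both cover counting error only. Nothing in the labels links the pools of different groups, and p-values weigh group differences against the spread between pools. Replicates were not duplicates: median chi-square per contig 2.60 to 7.32.

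Named in full were the 4 NCED and 2 hydroxylase contigs of highest mean TPM and those called against the majority of their enzyme; contigs reaching a mean of 1 CPM have every library printed. For each of the other pathway lists the most abundant tested contig was named. Of 17 lists, matched on descriptions and symbols, 3 (conjugation, ABI3/ABI4 factors, late embryogenesis genes) had no match. Members and lists were chosen with earlier results of these data known. None of 110110 identifiers matched the RefSeq gene table. Counts simulated for 4 °C against 14 °C had 85890 tested contigs. True differences were set in few: 70 by 1.5-fold, 63 by 2-fold and 67 by 4-fold. The test found 2.86%, 20.6% and 95.5% of these, in that order. In the real data 47.8% of tested contigs were called in this comparison. With far fewer true differences, the Benjamini-Hochberg threshold is harder to pass in the simulation. Its rates therefore do not tell what share of such differences was missed in the real data. Only contigs of at least 1 CPM were changed, so contigs near 0 counts were not covered. Alternatives were DESeq2 size factors, library totals, no filter, at least 1 CPM in 3 libraries, replicate block, 2 groups only, removal of the 100 most abundant contigs, the DESeq2 1.42.0 Wald test, limma-voom (limma 3.58.1) and each library left out. Figures used matplotlib 3.10.9.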

Additional observations from a re-analysis of the deposited data

How the results depend on the processing

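Counts of called contigs were recomputed under 18 other settings, 9 of which left out 1 library. No NCED or hydroxylase contig's fold change turned its sign in a comparison in which it was called, nor did that of a called contig named from the other steps of the pathway. With libraries left out, NCED calls were 15 to 15 at 4 °C against 14 °C, 14 to 14 at 4 °C against roots not stored and 9 to 12 at 14 °C against roots not stored, and hydroxylase calls were 4 to 5, 4 to 5 and 3 to 4. Under the other settings NCED calls were 11 to 15, 11 to 14 and 10 to 14. The stricter filter left 3 hydroxylase contigs, so that 3 instead of 5 were called at 4 °C against roots not stored, because fewer contigs were tested. With the replicate number as a block, NCED calls were 15, 14 and 11 and hydroxylase calls 4, 4 and 3. Deviations of log2 CPM from the group mean correlated between −0.524 and 0.315 in 9 pairs of same-numbered libraries from different groups. Pairs with different numbers reached 0.469. With 3 libraries per group these values cannot tell whether the numbers pair the samples. The block took the call at 14 °C against roots not stored from comp779_c3 (adjusted p = 0.051) and comp13236_c1, gave one to comp63287_c2, and took that at 4 °C against roots not stored from comp32709_c1. The unit moved the summed levels: NCED in TPM was 4.50, 141 and 146 at 4 °C, at 14 °C and not stored, a choice added after the data were seen, as were the sum and ratio without NCED5 and the recount of the pathway lists. At 4 °C against 14 °C the settings gave 8 to 16 receptors higher (8 with the stricter filter, which tested 15), 18 phosphatases lower, 14 to 15 bZIP factors lower, and 9 to 12 xanthoxin dehydrogenase contigs higher with 6 to 8 lower. Depth limits the sizes at 4 °C, where 12 of the 15 NCED contigs held at most 35.7 estimated counts in the 3 libraries together.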

Other observations

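NCED5 comp85733_c1, the dioxygenase contig that was higher at 4 °C, had its own set of contigs with a similar level across the 9 libraries, a search added after its values were seen. The closest were comp75129_c1 (CYP710A1, a sterol desaturase) with r = 0.997, comp88376_c1 and comp95753_c1 (ACLA-2, ATP citrate lyase), comp82943_c2 (ACO, which makes ethylene from aminocyclopropanecarboxylate) and comp80713_c4 (PME17, a pectinesterase), with 43 of 9690 contigs above 0.95. Each had its highest level in the second library at 4 °C and its lowest of that group in the third. That is the order of comp85733_c1, which a search by correlation over the same libraries selects for. CYP710A1 had 10.3, 55.3 and 3.36 CPM at 4 °C, against 1.24 ± 0.125 CPM at 14 °C and 1.34 ± 0.219 CPM in roots not stored. ACO had 4.81, 13.7 and 0.458 CPM at 4 °C, while the libraries at 14 °C held no count. The cause of the spread between the libraries at 4 °C was not tested.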
